A study of Mus musculus with 4 samples.

Results

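The glucocorticoid receptor gene Nr3c1 and 5 genes that the receptor is known to induce (Tsc22d3, Fkbp5, Ddit4, Sgk1 and Zbtb16) were described in naive CD4+ T cells of TACI-/- and wild-type (WT) mice. The 6 genes were chosen by symbol, and all 6 were found among the 22180 genes with a probe set of 1 gene symbol. Each had 1 such probe set. Tnfrsf13b encodes TACI, a cell surface receptor studied mainly in B cells. Both genotypes were on the C57BL/6 strain. Each had 2 arrays (Affymetrix Mouse Gene 2.0 ST, 1 colour) of total RNA from cells sorted as CD4+, CD62L high, CD44 low and CD25-, from spleen and lymph node material that was pooled. The labels name no hormone, drug or stimulus for either genotype, and the age and sex of the mice are not given in the sources used here. Replicates are called biological, but how many mice a pool held is not given, so the spread between arrays may be partly technical.

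Glucocorticoids are steroid hormones of the adrenal gland. In the absence of hormone their receptor, a nuclear receptor and transcription factor, is held in the cytoplasm by heat shock protein chaperones. With hormone it enters the nucleus, binds palindromic DNA elements and raises or lowers the transcription of nearby genes. In T cells the hormone is known for dampening inflammatory cytokines, for killing immature thymocytes and for following a daily rhythm that also sets the level of interleukin 7 receptor and chemokine receptor genes.

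Medians of the 41345 values per array lay between 4.11 and 4.13 log2 units, and arrays of one genotype correlated at r = 0.982 (TACI-/-) and r = 0.984 (WT) over the 13782 tested genes, which are not independent replicates. Genes entered the test if 2 or more arrays reached that array's 40th percentile, a filter level of 3.74 to 3.77 log2 units. Tnfrsf13b, the targeted gene, was at 2.73 and 3.09 log2 units in TACI-/- cells, against 2.95 and 3.02 in WT cells. All 4 values were below the filter, so the probe set cannot serve as a check on genotype. Of the sort's markers, Cd4 was at 10.57 and 10.45 log2 units in TACI-/- cells, against 10.64 and 10.46 in WT cells. Cd44 was at 6.00 and 5.83 in TACI-/- cells, against 5.65 and 5.79 in WT cells, and Il2ra (CD25) at 5.25 and 4.83, against 4.85 and 4.65 in WT cells, with log2 fold changes of 0.19 and 0.29. Of the CD8 genes, Cd8a was below the filter on all 4 arrays, while Cd8b1 was above it on all 4, at 6.11 and 5.73 in TACI-/- cells, against 6.55 and 6.59 in WT cells. Precision is limited by having 2 arrays per genotype.

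The comparison of TACI-/- with WT cells was made first for the 6 genes themselves. Across all tested genes 0.138% passed a Benjamini-Hochberg adjusted p under 0.05 (limma, two-sided), 0.109% higher and 0.029% lower in TACI-/- cells. Of the 6 genes, 5 were at or above the filter on all 4 arrays, and 0 of these 5 passed. Zbtb16 was at or above the filter only on the WT arrays, so its values are given with no test. Of the 5, Sgk1 alone met an unadjusted limma p under 0.05, as did 8.78% of all tested genes, with a higher level in TACI-/- cells. Unlike these 5, all tested genes include 311 that reached the filter on arrays of 1 genotype only. Of those 311, 154 had an unadjusted limma p under 0.05. Every share over all tested genes given here includes them. The receptor itself and the chaperone gene Fkbp5 had almost equal means in both genotypes.

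**Figure D1:**
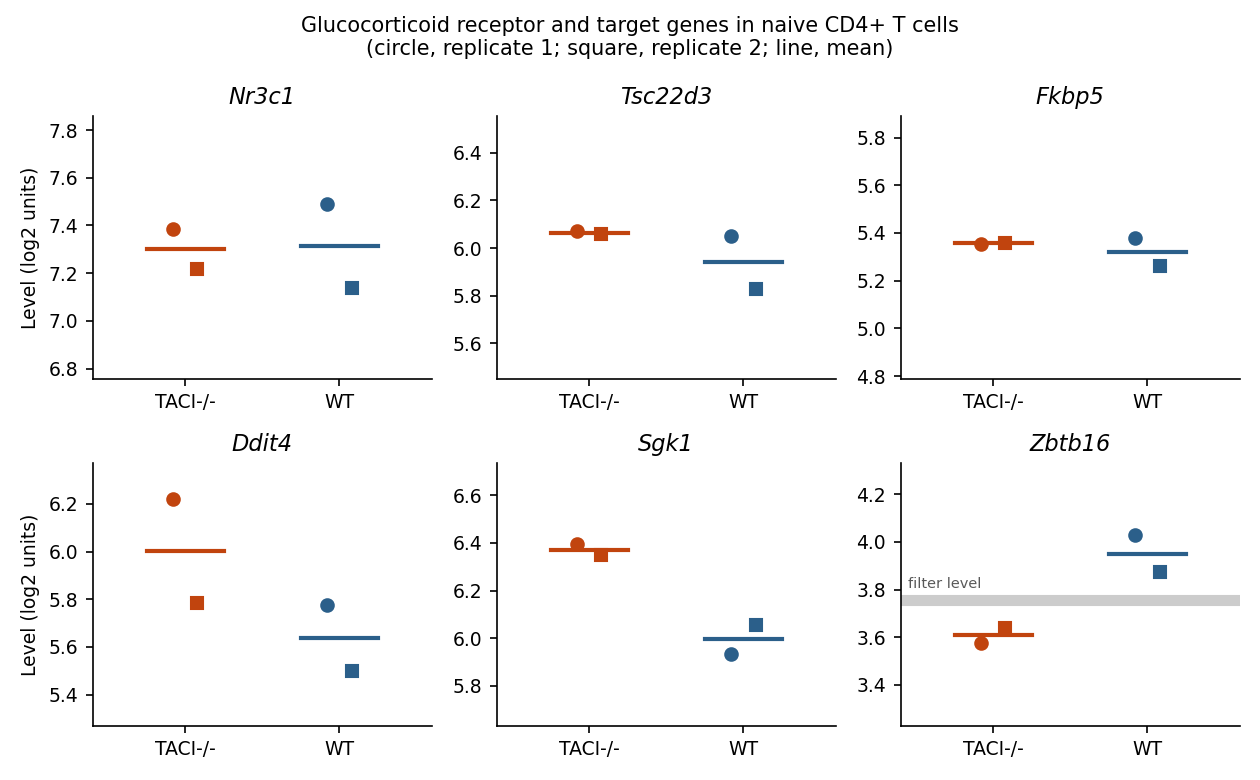
Level of each gene in log2 units on each array, TACI-/- left and WT right in every panel; circles are replicate 1, squares replicate 2 and lines means of 2 arrays. Every panel spans the same number of log2 units. Of the 5 genes at or above the filter on all 4 arrays, Sgk1 shows the widest distance between the nearest arrays of the genotypes. The grey band in the Zbtb16 panel is the filter level, 3.74 to 3.77, and the TACI-/- arrays of Zbtb16 lie below it.

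Nr3c1, the receptor gene, was at 7.38 and 7.22 log2 units in TACI-/- cells, against 7.49 and 7.14 in WT cells. Both TACI-/- arrays lay between the WT arrays, so the genotypes overlapped fully. The means were 7.30 ± 0.12 in TACI-/- and 7.31 ± 0.25 in WT cells (SD, n = 2 each). The log2 fold change, TACI-/- minus WT, was -0.01 ± 0.17 (SE), with a 95% limma interval from -0.41 to 0.38. On the fold scale this interval runs from 0.753 to 1.31, so changes of the transcript within it were not resolved. The sign of so small a difference depended on single arrays, being 0.07 without TACI-/- replicate 2 and 0.16 without WT replicate 1.

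Tsc22d3 encodes GILZ, a small leucine zipper protein that restrains NF-kB and AP-1 and is among the most widely used readouts of receptor activity in lymphocytes. It was at 6.07 and 6.06 log2 units in TACI-/- cells, against 6.05 and 5.83 in WT cells. The lower TACI-/- array exceeded the higher WT array by 0.0062 log2 units. The log2 fold change was 0.12 ± 0.14 (SE; 95% interval -0.21 to 0.46, limma adjusted p = 0.861). WT replicate 2 stood 0.22 log2 units below WT replicate 1, and the log2 fold change was 0.01 without WT replicate 2 and 0.23 without WT replicate 1.

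Fkbp5 encodes an immunophilin that joins the receptor's chaperone complex and lowers its affinity for hormone, in a feedback loop. It was at 5.35 and 5.36 log2 units in TACI-/- cells, against 5.38 and 5.26 in WT cells. The TACI-/- arrays again lay between the WT arrays. The log2 fold change was 0.03 ± 0.13 (SE), and the 95% limma interval on the fold scale ran from 0.825 to 1.27.

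Ddit4 encodes REDD1, an inhibitor of the growth kinase complex mTORC1 that hypoxia and amino acid shortage also induce. It was at 6.22 and 5.78 log2 units in TACI-/- cells, against 5.78 and 5.50 in WT cells. TACI-/- replicate 1 was the highest of the 4 arrays, while TACI-/- replicate 2 exceeded WT replicate 1 by 0.0063 log2 units. The means were 6.00 ± 0.31 in TACI-/- and 5.64 ± 0.20 in WT cells (SD, n = 2 each). Ddit4 had a difference of 0.36 ± 0.19 on the log2 scale (SE; limma adjusted p = 0.661), with a 95% interval from -0.09 to 0.82. Without TACI-/- replicate 1 the difference was 0.14, without TACI-/- replicate 2 it was 0.58, and without WT replicate 2 it was 0.22.

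Sgk1 encodes a kinase that is activated downstream of mTORC2, acts on ion channels and FoxO factors, and in helper T cells is known from the Th17 and Th2 lineages. It was at 6.40 and 6.35 log2 units in TACI-/- cells, against 5.94 and 6.05 in WT cells. Both TACI-/- arrays lay above both WT arrays, with 0.29 log2 units between the nearest arrays of the genotypes, more than the 0.05 and 0.12 units within them. The log2 fold change was 0.38 ± 0.13 (SE), which is 1.30-fold, with a 95% interval from 1.04-fold to 1.61-fold. Its unadjusted limma p was 0.0258 and its adjusted p 0.515, so it did not pass over all genes. Leaving out any 1 array kept the log2 fold change between 0.32 and 0.44, with unadjusted limma p from 0.0506 to 0.124. Of all tested genes, 90.9% had a smaller absolute change.

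Zbtb16 encodes PLZF, a transcription factor that marks innate-like T cells such as NKT cells and that glucocorticoids induce in several tissues. It was at 3.57 and 3.64 log2 units in TACI-/- cells, against 4.03 and 3.87 in WT cells. Both TACI-/- arrays were below the filter level and both WT arrays above it, so the gene passed the filter only through the genotype where it was higher. No size or test of the difference is given for that reason.

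**Figure D2:**
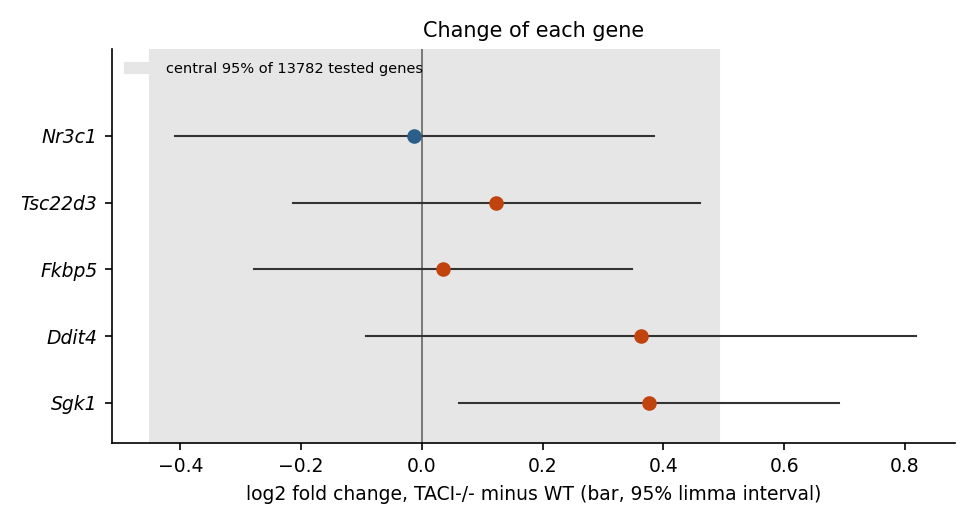
Log2 fold change of the 5 genes at or above the filter on all 4 arrays, TACI-/- minus WT (points, red above 0 and blue below), with its 95% limma interval (bars); the grey band holds the central 95% of the 13782 tested genes, from -0.45 to 0.49. All 5 points lie inside the band, and only the interval of Sgk1 does not reach 0.

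Of these 5 genes, 4 had a positive log2 fold change, against 51.8% of all tested genes. For 3 of them (Tsc22d3, Ddit4 and Sgk1) both TACI-/- arrays were above both WT arrays, as they were for 20.5% of all tested genes. With distances of 0.0062 and 0.0063 log2 units, the separations of Tsc22d3 and Ddit4 are smaller than the distance between the arrays of either genotype. In RefSeq's gene table (GRCm38.p6), Ddit4 and Sgk1 are both genes of chromosome 10, Nr3c1 of 18, Fkbp5 of 17, Zbtb16 of 9 and Tsc22d3 of X; none lies on chromosome 11 with the targeted gene Tnfrsf13b.

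Promoter sequence was set beside these values for the 3 genes whose TACI-/- arrays were above the WT arrays. RefSeq windows (GRCm38.p6, from 250 bases before to 50 after a start site) matched 4 of the 6 genes, with 11 windows: 6 of Sgk1, 3 of Tsc22d3 and 1 each of Ddit4 and Fkbp5. The palindrome GNACANNNTGTNC, a core of the receptor's binding element that reads the same on both strands, was found in 1 of the 11 windows, against 0.475% of all 32851 windows. That window belongs to Sgk1 and lies at chr10:21993640-21993939 (+ strand), where the palindrome runs from 188 to 176 bases before the start. The single hexamer AGAACA, searched on both strands and found in 19.0% of all windows, occurred in 4 of the 11 windows. These were 3 windows of Sgk1 and 1 of Tsc22d3 at chrX:140600473-140600772 (- strand). In the Sgk1 window with the palindrome, 2 of its 3 hexamers overlap the palindrome. The core ACGTG, searched on both strands and known to be bound by hypoxia factors, occurs in 19.6% of all windows and in 3 of the 11. These are the Ddit4 window at chr10:59951721-59952020 (- strand), the Fkbp5 window and the same Sgk1 window that holds the palindrome; in the Fkbp5 and Sgk1 windows it matches on both strands at overlapping positions. With 6 of the 11 windows from Sgk1, the windows are not separate genes. By gene, the palindrome was found in 1 of the 4, against 0.537% of all genes with a window. The hexamer was found in 2 of the 4, against 21.3%, and ACGTG in 3 of the 4, against 21.8%. Capitals mark the palindrome in Sgk1, the hexamer in Tsc22d3 and the hypoxia core in Ddit4. The sequences run 5′ to 3′ on the strand of the gene.
Sgk1: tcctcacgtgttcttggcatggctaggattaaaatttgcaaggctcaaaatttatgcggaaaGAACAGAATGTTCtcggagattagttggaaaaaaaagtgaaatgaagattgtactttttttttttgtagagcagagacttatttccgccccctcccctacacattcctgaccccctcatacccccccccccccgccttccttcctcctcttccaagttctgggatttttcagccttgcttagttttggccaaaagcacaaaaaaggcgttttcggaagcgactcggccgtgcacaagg
Tsc22d3: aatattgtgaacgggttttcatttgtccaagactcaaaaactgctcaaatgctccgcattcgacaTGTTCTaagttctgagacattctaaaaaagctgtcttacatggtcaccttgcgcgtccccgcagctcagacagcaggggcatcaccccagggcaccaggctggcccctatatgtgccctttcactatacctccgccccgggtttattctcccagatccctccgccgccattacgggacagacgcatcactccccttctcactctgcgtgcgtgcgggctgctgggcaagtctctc
Ddit4: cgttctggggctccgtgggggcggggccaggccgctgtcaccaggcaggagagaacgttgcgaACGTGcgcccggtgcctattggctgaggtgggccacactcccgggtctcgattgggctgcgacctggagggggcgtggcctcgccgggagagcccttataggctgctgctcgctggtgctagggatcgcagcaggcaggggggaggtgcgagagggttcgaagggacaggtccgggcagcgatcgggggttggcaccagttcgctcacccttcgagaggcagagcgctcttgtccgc
A match says only that these letters stand in the window. The array has 1 probe set for Sgk1 and does not tell its start sites apart.

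Whether other genes known to be induced by glucocorticoids moved in the same cells was compared next, with a list of 30 genes that leaves out the 6. Of these, 22 were tested, and 2 rose in TACI-/- cells past adjusted p 0.05 (limma), Dusp1 and Irs2, none fell and 20 did not pass. At an unadjusted limma p under 0.05, 7 were higher and 3 lower, where 4.94% of all tested genes were higher and 3.84% lower. The list was chosen with earlier results of these data known, so its counts against these shares are a description and no independent support. The median log2 fold change of the list was 0.17, beside 0.01 over all tested genes. Many of these genes answer to other signals too, among them mitogens, antigen receptor ligation and cyclic AMP. Promoter windows matched 26 of the 30. The receptor palindrome was found in 2 of them, Mt1 and Txnip, against 0.537% of all genes with a window. Neither had an unadjusted limma p under 0.05. The hexamer AGAACA was found in 2, Bcl6 and Cxcr4, against 21.3% of all genes with a window. The hypoxia core ACGTG was found in 10 of the 26, against 21.8% of all genes with a window. These were Bcl6, Dusp1, Errfi1, Il1r2, Il6ra, Irs2, Klf9, Mt1, Per1 and Tat. A cyclic AMP element, TGACGTCA, was found in 2, Dusp1 and Errfi1, against 2.03% of all genes with a window. Whether any of these matches bears on the levels was not tested.

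Dusp1, a phosphatase that inactivates MAP kinases and mediates part of the hormone's anti-inflammatory action, was at 9.42 and 9.31 log2 units in TACI-/- cells, against 7.996 and 7.9999 in WT cells. The genotypes were separated by far more than the arrays within them, and the log2 fold change was 1.37 ± 0.13 (SE; limma adjusted p = 0.0288). Irs2, an adaptor of insulin and interleukin 4 receptors, was at 6.81 and 7.03 in TACI-/- cells, against 5.50 and 5.55 in WT cells (log2 fold change 1.39 ± 0.14, SE; limma adjusted p = 0.0323). Neither gene passed with any 1 array left out, where their log2 fold changes stayed between 1.31 and 1.42 (Dusp1) and between 1.28 and 1.502 (Irs2), nor without the low-value filter (limma adjusted p = 0.0565 and 0.0686) or with no moderation of the variance (adjusted p = 0.618 for both). With the replicate number as a block both had a limma adjusted p of 0.0593, and after repeated quantile normalization Irs2 had 0.0582.

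The next genes of the list did not pass over all genes. Cxcr4, a chemokine receptor that guides cells to the bone marrow, was at 8.23 and 8.27 log2 units in TACI-/- cells, against 7.28 and 7.07 in WT cells (limma adjusted p = 0.0819). Rgs2, a regulator of G protein signalling, was at 9.23 and 8.998 in TACI-/- cells, against 7.71 and 8.02 in WT cells (limma adjusted p = 0.0819). In both genes each TACI-/- array was above each WT array. Per1, a clock gene with a known receptor element, was at 8.65 and 8.19 in TACI-/- cells, against 7.49 and 7.31 in WT cells (limma adjusted p = 0.2). Klf9 and Errfi1, both higher at an unadjusted p under 0.05, had log2 fold changes of 1.08 and 0.72. In the other direction, the interleukin 7 receptor gene Il7r, which glucocorticoids are known to induce in T cells, was at 9.99 and 10.15 in TACI-/- cells, against 10.66 and 10.44 in WT cells (log2 fold change -0.48 ± 0.15, SE; limma adjusted p = 0.452). Lcn2 and Sesn1 had -0.52 and -0.35. The count of lower genes was not stable: it was 0 without TACI-/- replicate 1 and 1 without either WT array.

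**Figure D3:**
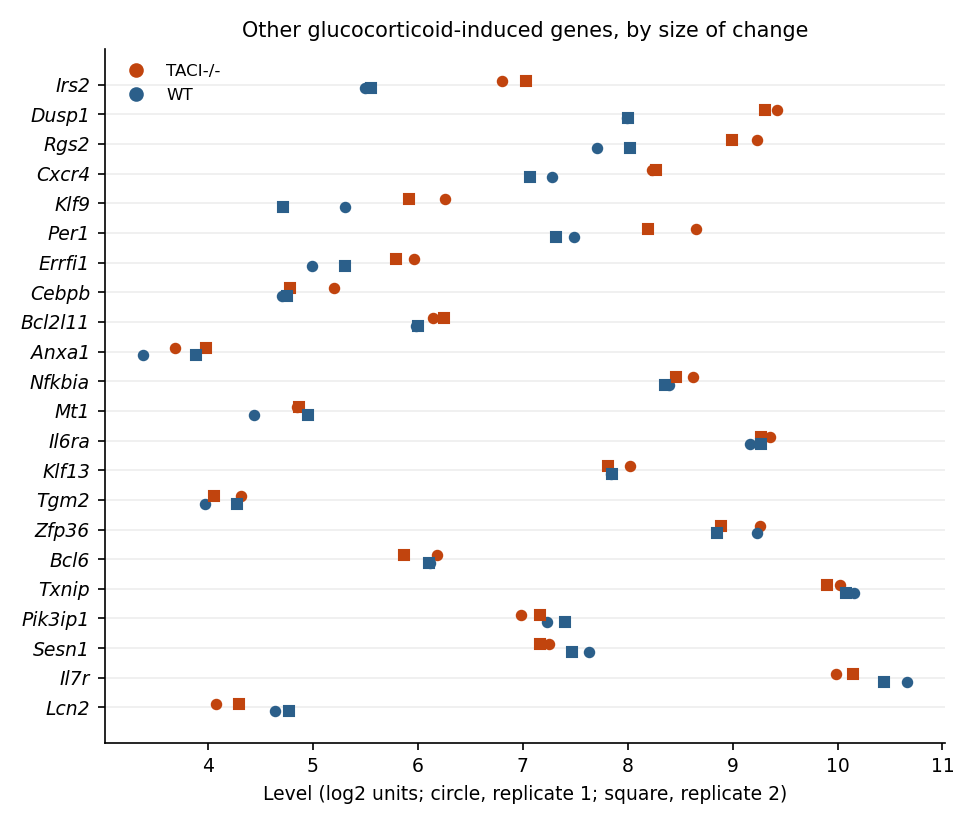
Levels in log2 units (horizontal axis) of the 22 tested genes of the list of other glucocorticoid-induced genes, ordered by log2 fold change from the top; TACI-/- arrays are red and drawn above the blue WT arrays, circles are replicate 1 and squares replicate 2. Of the 22 genes, 11 have every TACI-/- array to the right of every WT array, as do 20.5% of all tested genes. The 7 genes from Irs2 to Errfi1 are among these 11. Another 5 have every TACI-/- array to the left, as do 2501 of the 13782 tested genes. Levels of different genes come from different probes and are not comparable.

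Stimulation genes and markers of other cells were measured beside this list, and their counts are set beside the shares over all tested genes. These lists too were chosen with earlier results of these data known, so the counts are descriptions. Of 20 immediate early genes, which stimulation of a cell induces within minutes, 2 rose (Nr4a3 and Nr4a2), none fell, and 12 were higher at an unadjusted limma p under 0.05, beside 0.109% and 4.94% of all tested genes. Their mean level was 7.75 and 7.45 log2 units in TACI-/- cells, against 6.99 and 6.83 in WT cells. For the 30 other glucocorticoid-induced genes, of which 22 were tested, the mean level was 6.21 and 6.10 in TACI-/- cells, against 5.85 and 5.87 in WT cells. Of 9 regulatory T cell markers 5 reached the filter in both genotypes. Of these 5, 1 rose (Ctla4) and 4 were higher at an unadjusted limma p under 0.05, again beside 0.109% and 4.94% of all tested genes. Ikzf2 and Lrrc32 reached the filter on TACI-/- arrays only. The mean of the 9 was 5.03 and 4.999 in TACI-/- cells, against 4.48 and 4.44 in WT cells. It includes Ikzf2 and Lrrc32, and also Itgae and Nrp1, which were below the filter, so it does not describe the 5 alone. Foxp3, their defining marker, was at 6.19 and 5.98 in TACI-/- cells, against 5.63 and 5.38 in WT cells. The sort took CD25- cells, and most regulatory T cells carry CD25, while Foxp3 and Il2ra (CD25) were above the filter on all 4 arrays. Whether regulatory T cells remained after the sort was not tested. The part of these groups in the values of Sgk1, Ddit4, Dusp1 and Irs2 was not tested; in bulk RNA, more cells of a type and more transcript per cell cannot be told apart.

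For Zbtb16, the markers of innate-like T cells were set beside it. Of the 14 other markers with a probe set 7 were tested, and the mean level of the 14 was 4.26 and 4.20 in TACI-/- cells, against 4.03 and 4.11 in WT cells. Klrb1c, a defining marker of NK and NKT cells in this strain, was below the filter on all 4 arrays. Of the 7 tested, 2 were higher at an unadjusted limma p under 0.05, Il2rb and Slamf1, beside 4.94% of all tested genes. None of the 7 was lower at that level. Il2rb, which activated T cells also express, had the largest change among the 7, 1.11 ± 0.16 on the log2 scale (SE, limma adjusted p = 0.1). Slamf1 had 0.45 ± 0.14 (SE, limma adjusted p = 0.452). The part of these markers in the Zbtb16 values was not tested. Of 10 B cell markers 7 were tested, all with positive log2 fold changes (51.8% of all tested genes), 3 higher at an unadjusted limma p under 0.05 (4.94% of all) and none past adjusted p 0.05. The mean level of the 10 was 4.63 and 4.38 in TACI-/- cells, against 4.17 and 4.27 in WT cells. The mean of 10 CD8 T and NK cell markers was 4.33 and 4.33 in TACI-/- cells, against 4.27 and 4.49 in WT cells. Only 5 of these 10 were tested, so the mean includes genes below the filter. Single genes changed in both directions. Klrd1 and Cd8b1 had log2 fold changes of -0.87 and -0.65, and Eomes had 0.79, all at an unadjusted limma p under 0.05 and none past adjusted p 0.05. The mean of 12 myeloid markers was 3.79 and 3.80 in TACI-/- cells, against 3.88 and 3.83 in WT cells. Only 6 of these 12 were tested, so this mean too includes genes below the filter. Among them Cd68 had a log2 fold change of 0.71, and Lyz2 and Fcer1g had -0.49 and -0.36, also at an unadjusted p under 0.05 alone.

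Genes of the machinery that folds the receptor were compared next. Of 12 tested chaperone and immunophilin genes none passed adjusted p 0.05 (limma), with a median log2 fold change of -0.06. At an unadjusted limma p under 0.05, 1 was higher and 1 lower, beside 4.94% higher and 3.84% lower among all tested genes. The higher gene was Ppp5c, a phosphatase of the receptor complex. The lower gene was Stip1, which hands the receptor from one heat shock protein to the next. Ppp5c was at 6.82 and 6.66 log2 units in TACI-/- cells, against 6.27 and 6.34 in WT cells. Stip1 was at 6.88 and 6.75 in TACI-/- cells, against 7.62 and 7.07 in WT cells. Fkbp4, whose product opposes that of Fkbp5 by raising hormone affinity, was at 6.85 and 6.41 in TACI-/- cells, against 7.14 and 6.99 in WT cells. Its log2 fold change was -0.43 ± 0.18 (SE), with an unadjusted limma p of 0.0507 and an adjusted p of 0.572, beside a log2 fold change of 0.03 for Fkbp5. Bag1 and Ahsa1 had log2 fold changes of 0.23 and -0.18. Hsp90ab1, Dnaja1 and Stub1 had no probe set of 1 symbol and were not analysed here, and Ptges3 was below the filter.

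Coregulators are proteins that the receptor recruits to switch genes on or off. Of 14 tested, none passed adjusted p 0.05 (limma). At an unadjusted limma p under 0.05, 1 was higher, the methyltransferase gene Carm1, beside 4.94% of all tested genes. Carm1 was at 7.04 and 6.93 log2 units in TACI-/- cells, against 6.61 and 6.65 in WT cells. Nrip1, Ehmt2, Ncoa1 and Crebbp had log2 fold changes of 0.26, -0.18, 0.18 and -0.15, and the median of the list was 0.02. Among 7 tested genes of steroid handling and related receptors, none passed adjusted p 0.05 (limma). With an unadjusted limma p under 0.05, 1 was lower in TACI-/- cells, beside 3.84% of all tested genes. This was Hsd11b1, which encodes the enzyme that turns inactive glucocorticoid into the active hormone inside cells. Hsd11b1 was at 6.56 and 6.58 in TACI-/- cells, against 6.89 and 7.01 in WT cells. The genotypes did not overlap, and the log2 fold change was -0.37 ± 0.13 (SE), with an unadjusted limma p of 0.0258 and an adjusted p of 0.515. Nr3c2, the mineralocorticoid receptor gene and the closest relative of Nr3c1, was at 4.46 and 4.24 in TACI-/- cells, against 4.37 and 4.43 in WT cells, with no separation. Nr2f6, H6pd and Cyp11a1 had -0.25, 0.12 and -0.04.

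Relatives of the 6 genes were measured on the same arrays. Of 13 tested paralogs none passed adjusted p 0.05 (limma), and of the 12 that reached the filter in both genotypes none had an unadjusted limma p under 0.05. Sgk2 was at 3.92 and 3.94 log2 units in TACI-/- cells, against 3.58 and 3.65 in WT cells. Its WT arrays were below the filter, so it passed only through the genotype where it was higher. Fkbp3, Tsc22d2, Fkbp1a and Fkbp2 had log2 fold changes of -0.29, 0.24, -0.22 and 0.26. Another list held genes of the mTORC1 and mTORC2 pathways of Ddit4 and Sgk1, both complex members and genes that act before or after them. Of the 17 tested, none had even an unadjusted limma p under 0.05, beside 8.78% of all tested genes. Their median log2 fold change was 0.06, and the 5 lowest p belonged to Deptor (0.27), Ndrg1 (0.33), Rptor (0.24), Tsc1 (0.27) and Foxo1 (0.23). The Ndrg1 protein is a substrate of the Sgk1 kinase, and Tsc1 is part of the complex through which REDD1 acts.

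Genes of the other signals that induce Ddit4 were measured too. Of 11 tested genes of hypoxia and the amino acid response none passed adjusted p 0.05 (limma). At an unadjusted p under 0.05, 3 were higher, the hypoxia factor gene Hif1a (log2 fold change 0.54), the glucose transporter gene Slc2a1 (0.61) and Chac1 (0.53), and 2 lower, Trib3 (-0.60) and the asparagine synthetase gene Asns (-0.39), beside 4.94% higher and 3.84% lower among all tested genes. Genes that glucocorticoids repress were also measured. Of 10 tested, none passed adjusted p 0.05 (limma), and the median log2 fold change was 0.12. At an unadjusted limma p under 0.05, 2 were higher (Tnf and Ccl3) and 1 lower (Il13), beside the same shares of all tested genes. Tnf was at 7.90 and 7.54 log2 units in TACI-/- cells, against 7.39 and 6.99 in WT cells, and Ccl3 and Il13 had log2 fold changes of 0.46 and -0.62. Nos2 and Ccl5 had 0.28 and 0.54, with overlapping genotypes for Ccl5. Il2, Ifng, Il4, Il5, Il6 and Cxcl10 were below the filter.

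**Figure D4:**
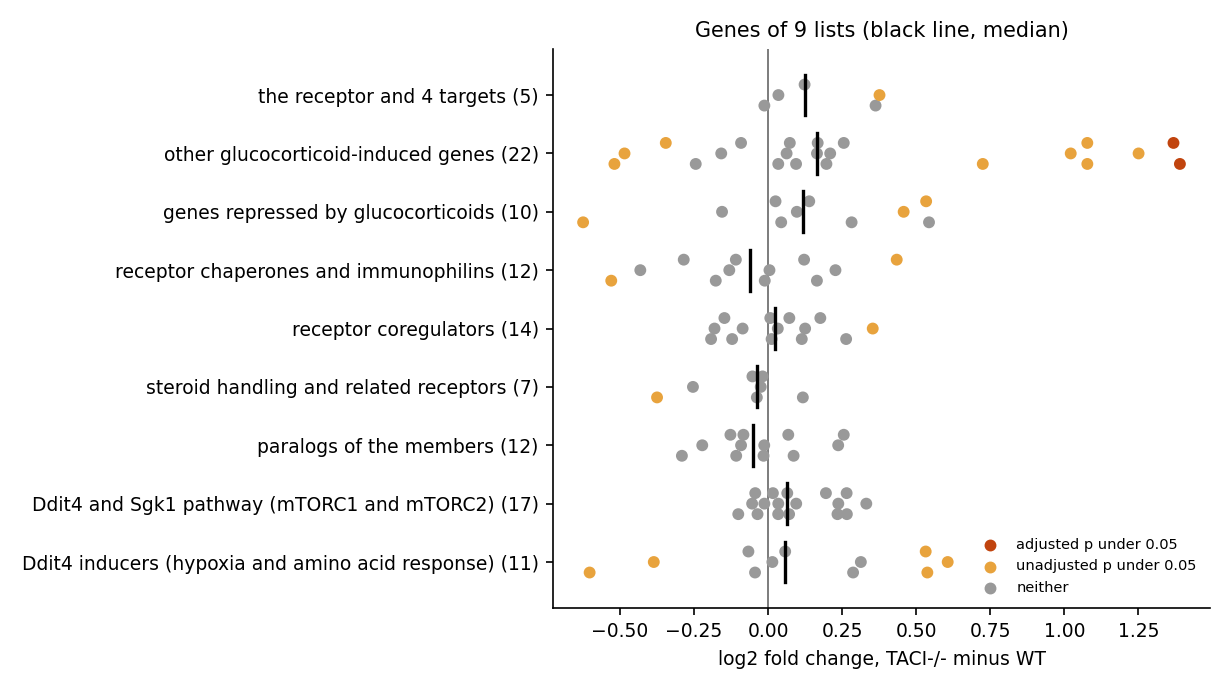
Log2 fold change, TACI-/- minus WT (horizontal axis), of the genes that reached the filter in both genotypes, in 9 lists (the receptor with its targets and 8 lists of related genes; cell markers and immediate early genes are not drawn), with the number of genes in brackets and the median as a black line; red points passed a limma adjusted p under 0.05, orange points only an unadjusted p under 0.05. The only red points among these 9 lists are Dusp1 and Irs2, and none of the 9 medians exceeds 0.17.

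Genes whose pattern over the 4 arrays was most like that of Nr3c1 and of Sgk1, the member with the largest absolute change, were found by the distance between mean-centred profiles among 12345 tested genes, without predicted genes, antigen receptor segments or small RNAs. For Nr3c1 these were Ubqln1, Dcun1d2 and Fer, at distances of 0.02, 0.02 and 0.03 log2 units. For Sgk1 they were Atp6ap2, Trarg1 and Nodal, at 0.03, 0.03 and 0.04. Atp6ap2 was at 6.59 and 6.54 log2 units in TACI-/- cells, against 6.10 and 6.24 in WT cells. With 4 arrays many genes come this close, and the likeness is a description only.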

How the data were processed

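The deposited values are log2 expression levels, 1 for each probe set on each array. The authors' processing is known only from the submitters' processing notes, which name RMA (robust multi-array average) and Partek without versions or roles; the log base is unstated, and 2 was assumed because RMA uses it and the values span 0.94 to 13.2. Genome build and filters are not given in the sources used here. Of 41345 probe sets, 23521 have 1 gene symbol in the platform annotation, 1814 several and 16010 none; only those with 1 symbol were used, and a gene took its brightest probe set. The TACI-/- against WT difference was fitted in R 4.3.3 with limma 3.58.1 (lmFit and eBayes, no term beside genotype) over all 13782 tested genes, with Benjamini-Hochberg adjustment; the fit was tested on simulated data. Levels are RMA log2 units, and probe effects prevent comparing levels between genes. The members and lists were chosen with earlier results of these data known. Named were all 6 genes, and of each list up to 5 genes by lowest p with any past the threshold; further list members, Foxp3, Klrb1c, Cd8b1, Nr3c2 and Il7r among them, were chosen after their values were seen. Arrays with the same replicate number share only that number, so the block is an alternative. Alternatives were other filters, scalings, variance models and probe set rules, that block, and leaving out each array. Sequences are from RefSeq (GRCm38.p6).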

Additional observations from a re-analysis of the deposited data

How the results depend on the processing

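None of the 5 genes at or above the filter on all 4 arrays passed a limma adjusted p of 0.05 or 0.1 in any setting that used all arrays. Zbtb16 is left out here too. Tsc22d3, Ddit4 and Sgk1 kept their sign in every setting, also with 1 array left out. Leaving out 1 array at a time gave log2 fold changes of -0.19 to 0.16 for Nr3c1, 0.01 to 0.23 for Tsc22d3, -0.024 to 0.094 for Fkbp5, 0.14 to 0.58 for Ddit4 and 0.32 to 0.44 for Sgk1. Nr3c1 turned positive without TACI-/- replicate 2 (0.07) or WT replicate 1 (0.16), and Fkbp5 negative without WT replicate 2 (-0.024); each of these differences was smaller than its SE. Deviations of same-numbered arrays from their genotype means correlated at -0.032 over the tested genes. With the replicate number as a block, none passed adjusted p 0.05; at an unadjusted limma p under 0.05 Ddit4 was gained (0.0472, against 0.101 without the block) and Sgk1 kept (0.042). Over all genes, 19 passed adjusted p 0.05, against 3 with no filter, 45 with the 60th percentile filter, 12 with quantile normalization again, 45 with trend and robust moderation, 13 with the block, 0 with no moderation (986 at an unadjusted p under 0.05) and 0 leaving out any 1 array (721 to 1145 at an unadjusted p under 0.05, against 1210 with all arrays). The other glucocorticoid-induced genes at an unadjusted limma p under 0.05 numbered 4 higher and 0 lower with no moderation, and 7 to 8 higher and 0 to 2 lower leaving out 1 array; these and the values of Dusp1 and Irs2 were alternatives added after seeing the data. The causes were not tested.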
